A study of Mus musculus with 14 samples.

Results

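The 10 genes described here encode the calcium pumps of the endoplasmic reticulum (ER), its release channels and its calcium sensor in mouse embryonic stem cells (ESCs) and embryoid bodies (EBs). They are the 3 sarco/ER calcium ATPases (SERCA pumps, Atp2a1, Atp2a2 and Atp2a3), the 3 inositol trisphosphate (IP3) receptors (Itpr1, Itpr2 and Itpr3), the 3 ryanodine receptors (Ryr1, Ryr2 and Ryr3) and Stim1. They were taken by gene symbol, and all 10 are among the 16181 genes of the deposited CPM table and the 50686 of the count table.

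RNA was sequenced from an Osr1-GFP reporter ESC line with a stable knockdown, by an shRNA against LacZ in the control (shLacZ) or an shRNA against Dis3l2 (shDis3l2), the exoribonuclease whose loss the study examines. Undifferentiated ESCs kept with LIF and the inhibitor pair 2i were sampled as d0. EBs formed in hanging drops without LIF and 2i, and held in suspension in medium with serum, were sampled on every second day from d2 to d12. The design holds 14 libraries, 1 per line and day, and so the lines cannot be compared on 1 day against a replicate spread or with a p-value. Beside each such ratio stands its 95% interval (Clopper-Pearson, on the reads), and this interval covers counting error only. EBs are mixtures of cell types, and with bulk RNA fewer cells of a type and less RNA per cell cannot be told apart.

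SERCA pumps move calcium from the cytosol into the ER against its gradient. IP3 receptors open when phospholipase C makes IP3, and ryanodine receptors release calcium during muscle contraction and in neurons. Stim1 senses an emptied store and opens Orai channels of the plasma membrane. Each family holds isoforms with different tissue distributions. Atp2a2 is the pump of most cells and of the heart, Atp2a1 belongs to fast skeletal muscle and Atp2a3 to blood cells, platelets and some epithelia. Itpr1 is the main IP3 receptor of the brain, while Itpr2 and Itpr3 prevail in many other tissues, Itpr3 above all in epithelia. Ryr1 is the channel of skeletal muscle, Ryr2 that of the heart, and Ryr3 is found at lower levels in brain and muscle.

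Reads counted on genes ranged from 7178712 to 39888099 per library, and 3 counts, the floor, corresponded to between 0.0752 and 0.418 CPM (counts scaled to a library total of 1000000 over all genes). Dis3l2 in shDis3l2 stood at 13.7%, 28.1%, 32.1% and 55.2% of the shLacZ level on d0, d2, d4 and d6 in turn and at 75.4% on d12. On d8 its interval ran from 83.7 to 113% and on d10 from 78.8 to 115%, so that on these days the libraries labelled shDis3l2 showed no detectable knockdown. Results over d6 to d12 are therefore also given without d8 and d10. Beside TMM factors from 1.02 to 1.15 in the EB libraries, the d0 libraries had factors of 0.711 (shLacZ) and 0.623 (shDis3l2). With library totals, the median gene was 0.57 higher on the log2 scale at d12 than at d0 in shLacZ and 0.97 higher in shDis3l2, and with TMM the medians were -0.03 and 0.07. Ratios against d0 are read against these shifts. The median ratio of the lines at d0 was -0.32 on the log2 scale with totals, -0.12 with TMM and 0.08 with DESeq2 size factors. Pluripotency markers (6 of 6 above the floor in every library) summed to 2913 and 2072 CPM at d0. From d6 to d12 they summed to 360 to 504 CPM in shLacZ and 55.0 to 341 in shDis3l2.

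The stretches upstream of the 3 members that differed most between d0 and d12 are shown for reference, since Itpr2 and Ryr2 were higher and Atp2a3 was lower at d12 than at d0 in both lines. They are the 250 bases before the gene start from RefSeq on GRCm38.p6, read on the strand of the gene, and 7 of the 10 members had an entry. Capitals mark matches on either strand to the TATA box (TATAAA), the CAAT box (CCAAT), the GC box (GGGCGG), the element of the estrogen-related receptors (TCAAGGTCA) and the E-box (CANNTG). Atp2a3 lies at chr11:72960919-72961168 (+), Itpr2 at chr6:146502224-146502473 (-) and Ryr2 at chr13:12106946-12107195 (-).
Atp2a3: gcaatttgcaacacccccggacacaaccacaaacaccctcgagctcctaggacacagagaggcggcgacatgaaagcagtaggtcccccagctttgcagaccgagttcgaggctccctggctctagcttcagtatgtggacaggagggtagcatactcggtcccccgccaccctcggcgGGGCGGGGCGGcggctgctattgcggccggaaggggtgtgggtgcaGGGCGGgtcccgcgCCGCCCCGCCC
Itpr2: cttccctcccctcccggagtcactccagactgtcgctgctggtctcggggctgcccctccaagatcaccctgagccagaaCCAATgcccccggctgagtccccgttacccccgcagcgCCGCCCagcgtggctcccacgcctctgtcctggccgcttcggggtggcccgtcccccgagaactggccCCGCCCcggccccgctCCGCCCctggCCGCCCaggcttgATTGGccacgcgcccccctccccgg
Ryr2: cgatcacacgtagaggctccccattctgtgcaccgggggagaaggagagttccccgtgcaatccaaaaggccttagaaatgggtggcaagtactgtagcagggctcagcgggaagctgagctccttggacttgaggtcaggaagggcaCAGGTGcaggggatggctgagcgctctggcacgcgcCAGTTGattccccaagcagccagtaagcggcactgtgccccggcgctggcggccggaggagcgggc

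Atp2a3 held 5 matches to GGGCGG, of which neighbouring ones overlap by a base, and Itpr2 held 4, while Ryr2 held none. Of 32851 such windows, 32.7% held GGGCGG at least once. Itpr2 also held 2 matches to CCAAT (33.8% of windows) and Ryr2 held 2 to CANNTG (66.2% of windows). TATAAA (12.4%) and TCAAGGTCA (0.387%) had no match in the 3 windows. GC content was 66.8% for Atp2a3, 74.4% for Itpr2 and 63.2% for Ryr2, with 20, 22 and 14 CpG sites, where the median window had 52.4% and 6. A match is a run of letters and was not tested as a binding site.

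**Figure D1:**
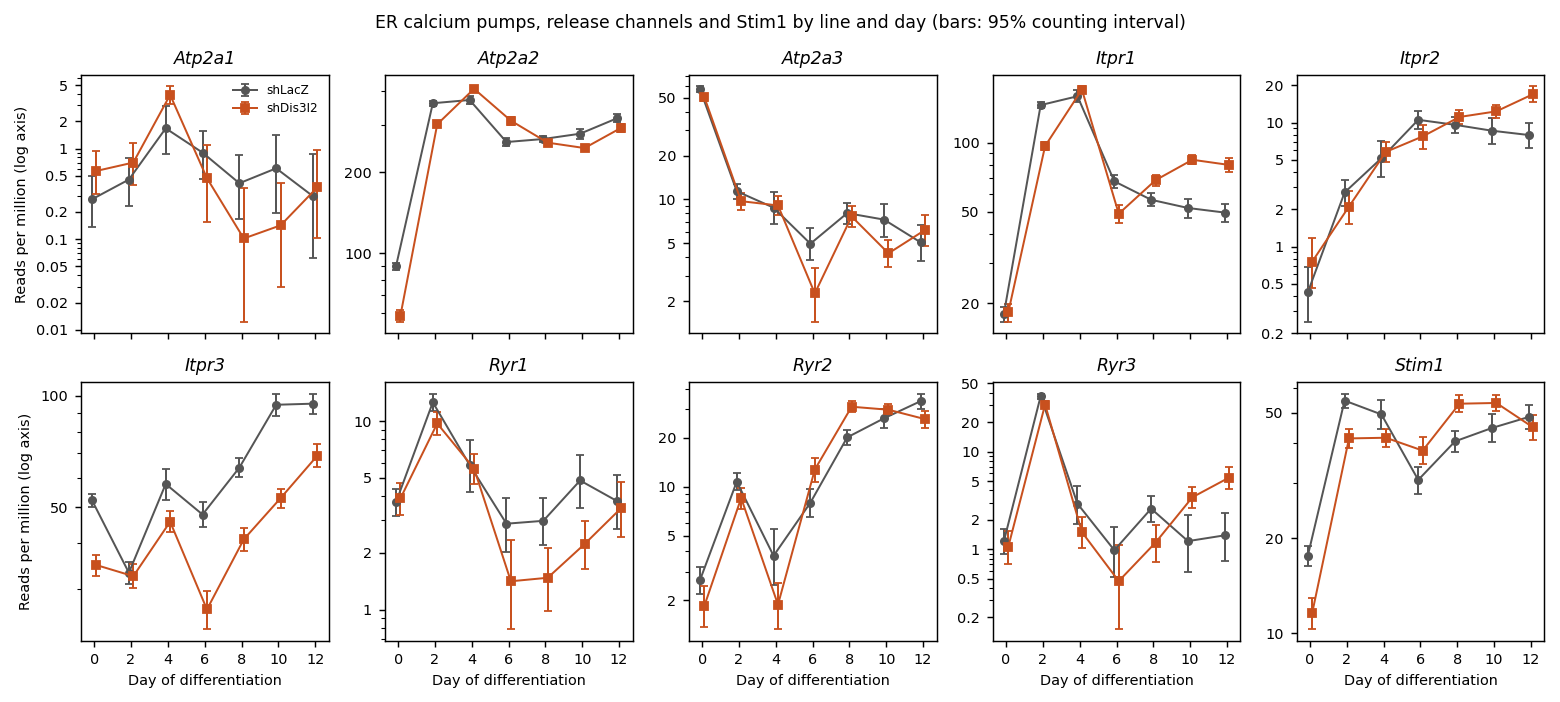
Level of each member by day in shLacZ (grey circles) and shDis3l2 (orange squares), in CPM on a log axis that differs between panels; 1 library per point, bars are 95% Poisson counting intervals. Atp2a3 is highest at d0, Ryr3 at d2, Itpr2 is highest from d6 on and Ryr2 from d8 on.

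Among the pumps, Atp2a2 was higher and Atp2a3 lower in every EB library than in the ESCs of the same line. Atp2a2 (chromosome 5, 122453513 to 122502225, minus strand) was counted in shLacZ at 89.6 CPM in the ESCs and, in the order of the EB days from d2 to d12, at 361, 371, 259, 266, 278 and 317 CPM. The shDis3l2 libraries held 58.8 CPM in the ESCs and 301, 408, 311, 257, 246 and 293 CPM in the EBs. The d0 libraries were the lowest of each line, and the ranges of the lines overlapped. From d0 to d2 Atp2a2 was 4.03-fold higher in shLacZ (3.87 to 4.19) and 5.13-fold in shDis3l2 (4.85 to 5.42), or 1.44 and 1.59 on the log2 scale with TMM.

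Atp2a3 (chromosome 11, 72961169 to 72993044, plus strand) was at 57.4 CPM in shLacZ and 50.4 in shDis3l2 at d0. The shLacZ EBs held 11.4, 8.78, 4.96, 8.05, 7.26 and 5.06 CPM from d2 to d12, and the shDis3l2 EBs 9.72, 9.08, 2.26, 7.63, 4.26 and 6.18 CPM. The d0 libraries thus lay above all 12 EB libraries, whose highest value was 11.4 CPM. From d0 to d2 the level was 0.198-fold in shLacZ (0.175 to 0.224) and 0.193-fold in shDis3l2 (0.166 to 0.223), and with TMM this was a drop by 2.90 and 3.14 on the log2 scale. The sum of blood and megakaryocyte markers, the cells in which Atp2a3 is best known, followed another course. They summed to 3.01 and 2.76 CPM at d0 in shLacZ and shDis3l2, with 5 of 10 at 0 counts, and to 576 and 731 CPM at d8. Most of the d8 sums was the globin genes Hbb-bh1 (325 and 453 CPM) and Hba-x (220 and 239). Of the megakaryocyte genes, Itga2b was then at 11.8 and 16.6 CPM and Pf4 at 1.01 and 3.82.

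Atp2a1 (chromosome 7, 126445858 to 126463108, minus strand) was near the floor, with 2 to 81 counts per library. Its highest values were at d4, with 1.67 CPM in shLacZ (12 counts) and 3.91 in shDis3l2 (81 counts), and no other library reached 1 CPM. Skeletal muscle markers (10 genes) summed to 17.6 CPM in shLacZ at d4, the highest of that line, where the other days had 8.90 to 17.0 CPM. In shDis3l2 they summed to 13.5 CPM at d4 and were highest at d6, with 37.3 CPM. That d6 sum was almost wholly Tnnt3 (31.6 CPM) and Acta1 (5.37), and only 2 of the 10 markers were then above the floor. Of the 10 markers, 3 were above the floor in shLacZ and 4 in shDis3l2 at d4, when Myod1 had 0 and 4 counts and Myog 0 and 1. Their part in the level of Atp2a1 was not tested. Of the exon bases of Atp2a1, 21.9% overlap Rabep2 on the opposite strand, and whether the counting used strand is not given in the sources used here, so that reads of Atp2a1 and Rabep2 cannot be told apart there.

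Within the pump family, per length (counts over the gene length column, as a share of the family), the ESCs held a nearly even mixture and the EBs held Atp2a2. At d0 Atp2a2 made up 57.4% of the family in shLacZ (56.1 to 58.7%) and 49.9% in shDis3l2 (48.1 to 51.7%), and Atp2a3 42.3% (41.0 to 43.6%) and 49.3% (47.4 to 51.1%). From d2 to d12 Atp2a2 held between 95.9% and 98.9% in the 12 libraries, and Atp2a3 at most 3.57%. Atp2a1 reached 1.61% at d4 in shDis3l2. At d6 the share of Atp2a3 was 0.829% in shDis3l2 (0.557 to 1.23%) and 2.15% in shLacZ (1.69 to 2.72%), and these intervals did not overlap.

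**Figure D2:**
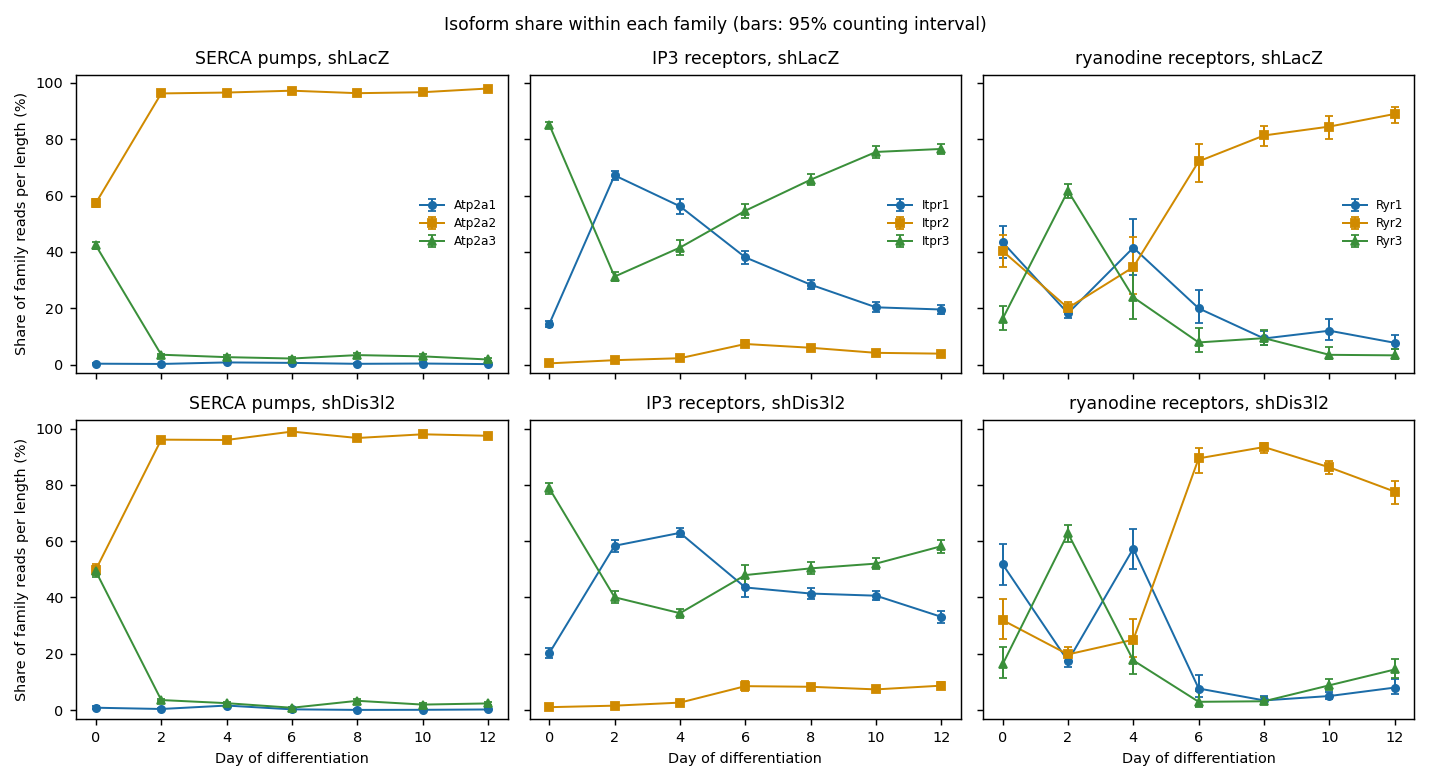
Share of each isoform in its family by day, in percent of reads per length, for shLacZ (top) and shDis3l2 (bottom); 1 library per point, bars are 95% counting intervals. The pumps turn to Atp2a2 at d2, the IP3 receptors turn from Itpr3 to Itpr1 at d2 and back toward Itpr3 later, and the ryanodine receptors are led by Ryr3 at d2 and by Ryr2 from d6.

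The leading IP3 receptor differed between ESCs, early EBs and late EBs, and the return toward Itpr3 was smaller in shDis3l2. Itpr1 (chromosome 6, 108213096 to 108551109, plus strand) started in shLacZ from 17.9 CPM in the ESCs and passed through 146, 159, 67.9, 56.4, 51.9 and 49.6 CPM on the EB days in order. In shDis3l2 the ESCs held 18.2 CPM and the EBs 96.6, 170, 49.0, 68.6, 84.3 and 80.0 CPM. Both lines were lowest at d0 and highest at d4. Between d4 and d6 the level was 0.426-fold in shLacZ (0.390 to 0.465) and 0.288-fold in shDis3l2 (0.262 to 0.315).

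Itpr3 (chromosome 17, 27057304 to 27122223, plus strand) was at 52.2 CPM in the shLacZ ESCs and at 33.3, 57.8, 47.8, 64.0, 94.7 and 95.3 CPM in the shLacZ EBs from d2 to d12. The shDis3l2 line had 34.9 CPM as ESCs and 32.6, 45.7, 26.5, 41.0, 52.9 and 69.0 CPM as EBs. The shDis3l2 library was the lower of the pair on each of the 7 days, although the ranges of the lines over the days overlapped. At d2 the ratio was 0.979 (0.885 to 1.08), which counting error spans. At d0 it was 0.669 (0.618 to 0.723), and its log2 value of -0.58 with totals was -0.39 with TMM and -0.19 with DESeq2 size factors. From d6 on the ratio was 0.554 (0.480 to 0.639), then 0.640 (0.583 to 0.702), 0.559 (0.510 to 0.614) and, on d12, 0.724 (0.657 to 0.798).

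Itpr2 (chromosome 6, 146108299 to 146502223, minus strand) was scarce in ESCs and higher in every EB library. The shLacZ ESCs held 0.426 CPM (17 counts), and the EBs of the line 2.73, 5.15, 10.5, 9.58, 8.59 and 7.93 CPM in the order of days. For shDis3l2 the values were 0.755 CPM in the ESCs (20 counts) and 2.10, 5.80, 7.73, 11.1, 12.3 and 16.9 CPM in the EBs. The shLacZ libraries were highest at d6, and those of shDis3l2 at d12. Over d0 to d12 the level was 18.6-fold higher in shLacZ (10.9 to 33.5) and 22.4-fold in shDis3l2 (14.1 to 37.6), or 3.62 and 3.60 on the log2 scale with TMM.

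Per length, Itpr3 made up 85.2% of the IP3 receptors in shLacZ at d0 (84.1 to 86.3%) and 78.8% in shDis3l2 (76.9 to 80.6%). At d2 Itpr1 held 67.2% (65.6 to 68.7%) and 58.4% (56.3 to 60.4%). From d4 to d12 the share of Itpr3 in shLacZ was then 41.5%, 54.6%, 65.7%, 75.5% and 76.6% in order. The share in shDis3l2 was 34.4%, 48.0%, 50.3%, 52.0% and 58.2% on the same days. The lines parted most at d10, where Itpr1 made up 40.6% in shDis3l2 (38.9 to 42.3%) and 20.3% in shLacZ (18.5 to 22.3%). Itpr2 held no more than 8.68%, its value in shDis3l2 at d12, beside 3.87% in shLacZ. Interval pairs of Itpr3 did not overlap on any of the 7 days, and shDis3l2 had the larger share at d2, with 40.1% (38.0 to 42.1%) against 31.2% (29.7 to 32.8%).

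The ryanodine receptors showed a peak of Ryr3 at d2 alone and high Ryr2 from d8. Ryr3 (chromosome 2, 112631355 to 113217096, minus strand) was in shLacZ at 1.20 CPM in the ESCs, at 37.0 CPM on d2 and at 2.93, 0.977, 2.60, 1.21 and 1.39 CPM on the days that followed. The shDis3l2 ESCs held 1.06 CPM, the d2 EBs 30.4 CPM and the later EBs 1.50, 0.471, 1.17, 3.41 and 5.43 CPM. The d2 libraries lay above the other 12, whose highest value was 5.43 CPM. From d0 to d2 the level was 30.8-fold higher in shLacZ (23.0 to 42.0) and 28.8-fold in shDis3l2 (19.7 to 43.6), and from d2 to d4 it was 0.0790-fold (0.0487 to 0.121) and 0.0492-fold (0.0332 to 0.0706). With TMM the step from d0 to d2 was 4.38 and 4.08 on the log2 scale.

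Ryr1 (chromosome 7, 29003344 to 29125179, minus strand) was also highest at d2, with 12.6 CPM in shLacZ and 9.72 in shDis3l2, after 3.71 and 3.89 at d0. From d4 on shLacZ held 5.85, 2.86, 2.96, 4.84 and 3.77 CPM and shDis3l2 held 5.61, 1.41, 1.48, 2.23 and 3.46 CPM. From d6 to d12 these values rest on 15 to 50 counts per library. The shDis3l2 libraries of d6, d8 and d10 were the lowest of the 14.

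Ryr2 (chromosome 13, 11553102 to 12106945, minus strand) went in shLacZ from 2.66 CPM in the ESCs through 10.7, 3.76, 7.97, 20.1, 26.3 and 33.5 CPM in the EBs. The series in shDis3l2 was 1.85 CPM in the ESCs and 8.50, 1.88, 12.7, 30.9, 29.6 and 25.9 CPM in the EBs. The libraries of d8 to d12 lay above all others in both lines. The step from d4 to d6 was 6.75-fold in shDis3l2 (4.70 to 9.91) and 2.12-fold in shLacZ (1.38 to 3.36). Only the shLacZ library was still higher at d12 than at d10, by 1.28-fold (1.07 to 1.52), while in shDis3l2 the ratio was 0.875 (0.757 to 1.01).

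Per length, Ryr3 held 61.7% of the ryanodine receptors in shLacZ at d2 (59.2 to 64.0%) and 62.8% in shDis3l2 (59.8 to 65.7%). From d6 to d12 Ryr2 held 72.2% to 89.0% in shLacZ and 77.6% to 93.4% in shDis3l2. At d12 Ryr3 made up 14.4% in shDis3l2 (11.3 to 18.2%) and 3.27% in shLacZ (1.95 to 5.45%). The length column gives 16849 bases for Ryr2 where the exons of GENCODE M21 cover 28790. With those lengths, Ryr2 held 60.3% to 82.6% in shLacZ and 66.9% to 89.3% in shDis3l2 from d6 to d12 and remained the leading isoform there.

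Stim1 (chromosome 7, 102267806 to 102437319, plus strand), the sensor, was lowest in the ESCs of each line. The shLacZ ESCs had 17.6 CPM and the EBs 54.5, 49.3, 30.6, 40.5, 44.7 and 48.4 CPM. The shDis3l2 ESCs had 11.6 CPM and the EBs 41.4, 41.6, 37.9, 53.3, 53.6 and 44.9 CPM. The shDis3l2 library was the lower of the pair at d0, d2, d4 and d12 and the higher at d6, d8 and d10. Across the 14 libraries, Pearson's r of log2(CPM + 1) was 0.91 between Atp2a2 and Stim1, 0.87 between Atp2a2 and Itpr1 and -0.85 between Atp2a3 and Itpr2. These are descriptions over libraries of 2 lines that share their days, and the d0 libraries stand apart in scaling.

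Summed per length, in RPKM (CPM over the gene length in kilobases), the pumps were the most abundant family in every library. Their sum was 25.7 RPKM in shLacZ and 19.4 in shDis3l2 at d0 and highest at d4, with 63.1 and 69.9. The IP3 receptors summed to 6.81 and 4.93 RPKM at d0 and 13.8 and 13.2 at d12, and the ryanodine receptors to 0.391 and 0.344 at d0, 3.16 and 2.55 at d2 and 2.24 and 1.98 at d12. Ryanodine receptors thus made up 21.1% of the release channels in shLacZ and 22.0% in shDis3l2 at d2, and 4.00% and 2.94% at d4. All these sums and the ratio below use the 16849 bases of the length column for Ryr2. They were not recomputed with the 28790 bases of GENCODE M21, with which the ryanodine sums would be lower, most of all where Ryr2 leads. The ratio of pumps to release channels lay between 2.99 and 4.59 in 13 of 14 libraries and was 7.39 in shDis3l2 at d6, where shLacZ had 4.21. On that day Atp2a2 was higher in shDis3l2 (ratio 1.20, 1.14 to 1.26) while Itpr1 (0.722, 0.647 to 0.805) and Itpr3 were lower.

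**Figure D3:**
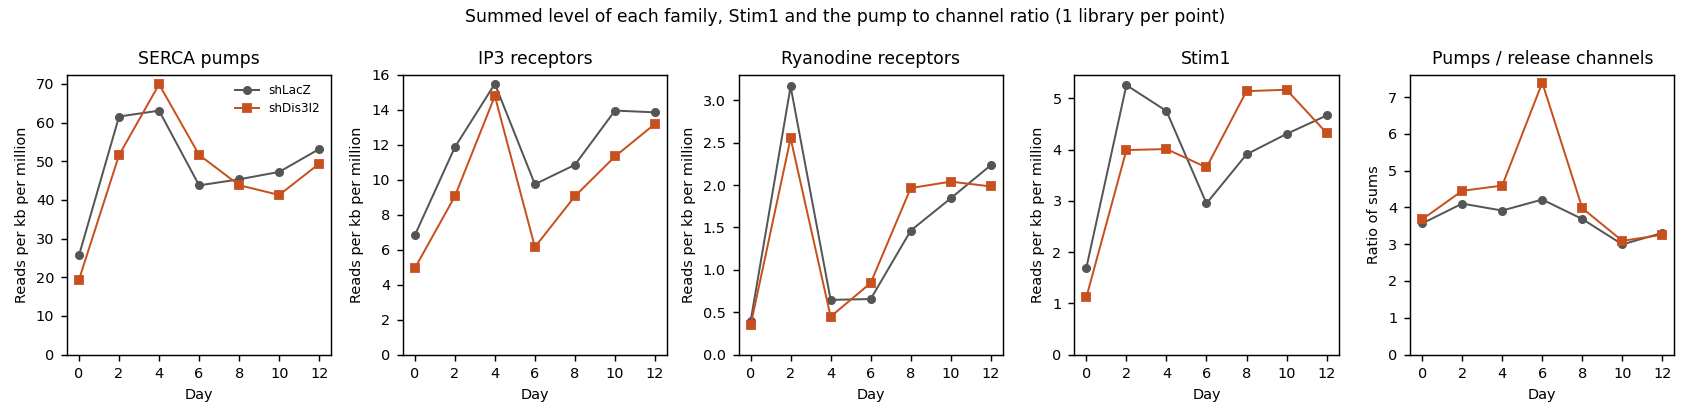
Summed level of the SERCA pumps, IP3 receptors and ryanodine receptors, the level of Stim1 (all in RPKM) and the ratio of pumps to release channels by day in shLacZ (grey circles) and shDis3l2 (orange squares), 1 library per point. The ratio stands at 7.39 in shDis3l2 at d6 and between 2.99 and 4.59 elsewhere.

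Between consecutive days, most members differed over the step from ESCs to d2, and their number depended on the scaling of d0. With library totals, of 9 members that reached 1 CPM in either library, 7 were at least 2-fold higher at d2 than at d0 in shLacZ (38.5% of all 13584 protein-coding genes compared) and 1 was at least 2-fold lower (18.2%). In shDis3l2 the counts were again 7 (45.1% of 13449) and 1 (16.5%). The lower gene was Atp2a3 in both lines, and Itpr3 was within 2-fold, at 0.638 in shLacZ and 0.933 in shDis3l2. With TMM, 3643 genes were higher and 3982 lower of 13717 in shLacZ, and 4013 and 4066 of 13631 in shDis3l2, so that the surplus of higher genes was gone. The 7 members higher in shLacZ were also 7 with TMM, but those in shDis3l2 numbered 5 with TMM and 4 with DESeq2 size factors. Ryr1 (1.32 to 0.55 on the log2 scale with TMM) and Itpr2 (1.48 to 0.71) dropped below 2-fold in shDis3l2. Itpr3 moved the other way, from -0.65 to -1.22 in shLacZ, which is more than 2-fold lower, and from -0.10 to -0.87 in shDis3l2. From d4 to d6, 3 members were at least 2-fold lower in shLacZ (10.7% of 13280) and 5 in shDis3l2 (13.5% of 13237), with Itpr1, Ryr1 and Ryr3 lower in both lines. With TMM, Ryr1 was within 2-fold in shLacZ on this step. Ryr2 was at least 2-fold higher in both lines, and Itpr2 (2.04-fold, 1.41 to 3.02) in shLacZ, where 9.16% of genes were higher, while in shDis3l2 13.9% were.

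A comparison of stages asked whether members differed between d0 to d4 and d6 to d12 beyond the spread between days, with line as a covariate (edgeR quasi-likelihood test, 14 libraries, Benjamini-Hochberg adjusted over all genes tested). The days are not replicates of a stage, and the lines share their days, so that each day enters as 2 units and these p-values are too small. With the counts of both lines summed within each day (7 units, an alternative chosen after the data were seen), none of the 10 members passed edgeR, while 2136 of 18690 genes did and 6684 had an unadjusted p under 0.05. With libraries as units, of 10 members 2 were higher at d6 to d12 (18.7% of 17616 genes) and 4 were lower (25.6%). Ryr2 was higher by 2.15 on the log2 scale (standard error 0.45, adjusted p = 0.00249) and Itpr2 by 1.87 (0.44, adjusted p = 0.00479). Atp2a3 was at -2.59 (0.61, adjusted p = 0.00471) and Ryr1 at -1.45 (0.32, adjusted p = 0.00308). Without d0 the difference of Atp2a3 was -0.75 (edgeR adjusted p = 0.0359), so that most of its size rests on the ESC libraries. With the lines summed, the log2 differences were 2.16 for Ryr2 (edgeR adjusted p = 0.0591), 1.87 for Itpr2 (0.0806), -2.63 for Atp2a3 (0.0674) and -1.48 for Ryr1 (0.0590). The call of Ryr3, with a log2 difference of -2.64 (adjusted p = 0.0227), rests on d2, since without d2 edgeR gave an adjusted p of 0.9998. Atp2a1 was at -1.68 (adjusted p = 0.0463) on few reads, and its call held in 4 of 12 alternatives.

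Atp2a2 (log2 difference 0.02, adjusted p = 0.957), Itpr1 (-0.71, 0.144), Itpr3 (0.26, 0.450) and Stim1 (0.22, 0.460) did not pass the edgeR test of stages. Without d0, Atp2a2 was lower at d6 to d12, with -0.33 (edgeR adjusted p = 0.0155), and Itpr1 was as well, with -1.15 (adjusted p = 0.000335). Without d8 and d10, none of the 10 members passed and 1447 genes did, with 5607 at an unadjusted p under 0.05. Ryr2 then had a log2 difference of 1.97 (edgeR adjusted p = 0.0628), Itpr2 of 1.91 (0.0808), Ryr1 of -1.37 (0.0800) and Atp2a3 of -2.85 (0.0813).

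The lines were then compared on each day. No member was at least 2-fold changed at d0, where 1.57% of genes were higher in shDis3l2 and 10.3% lower, or at d2 (0.554% and 1.20%). At d2 the ratio was below 1 for all 9 members compared, with 6 of 10 intervals wholly below 1, among them Itpr1 at 0.663 (0.628 to 0.699) and Stim1 at 0.759 (0.697 to 0.826). The median gene was itself at -0.07 on the log2 scale at d2. The share of all genes below 1 was not counted, so that these counts of members have no background beside them. At d4 Atp2a1 was 2.34-fold higher in shDis3l2 (1.27 to 4.72), where 1.60% of genes were, and none was lower (5.15%). Ryr2 stood at 0.501 (0.299 to 0.851) and Ryr3 at 0.512 (0.285 to 0.938), just inside the limit.

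At d6 Atp2a3 (0.456, 0.273 to 0.737) and Ryr1 (0.495, 0.253 to 0.921) were at least 2-fold lower in shDis3l2, as were 8.33% of genes, and no member was higher (7.00%). At d8 Ryr1 (0.499, 0.304 to 0.804) and Ryr3 (0.450, 0.259 to 0.761) were lower (8.54% of genes) and none higher (11.7%). At d10 Ryr1 was lower (0.460, 0.295 to 0.719, 8.74% of genes) and Ryr3 was 2.82-fold higher (1.45 to 6.12, 14.5% of genes). At d12 Ryr3 was 3.91-fold higher (2.15 to 7.59) and Itpr2 2.14-fold (1.63 to 2.82), with 13.4% of genes higher, and no member was lower (4.31%). The ratio of Ryr3 thus passed from below to above 1 between d8 and d10. Its counts were 23 in shDis3l2 and 44 in shLacZ at d8, 72 and 10 at d10, and 58 and 14 at d12. Of the exon bases of Ryr3, 4.83% overlap Aven on the opposite strand.

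**Figure D4:**
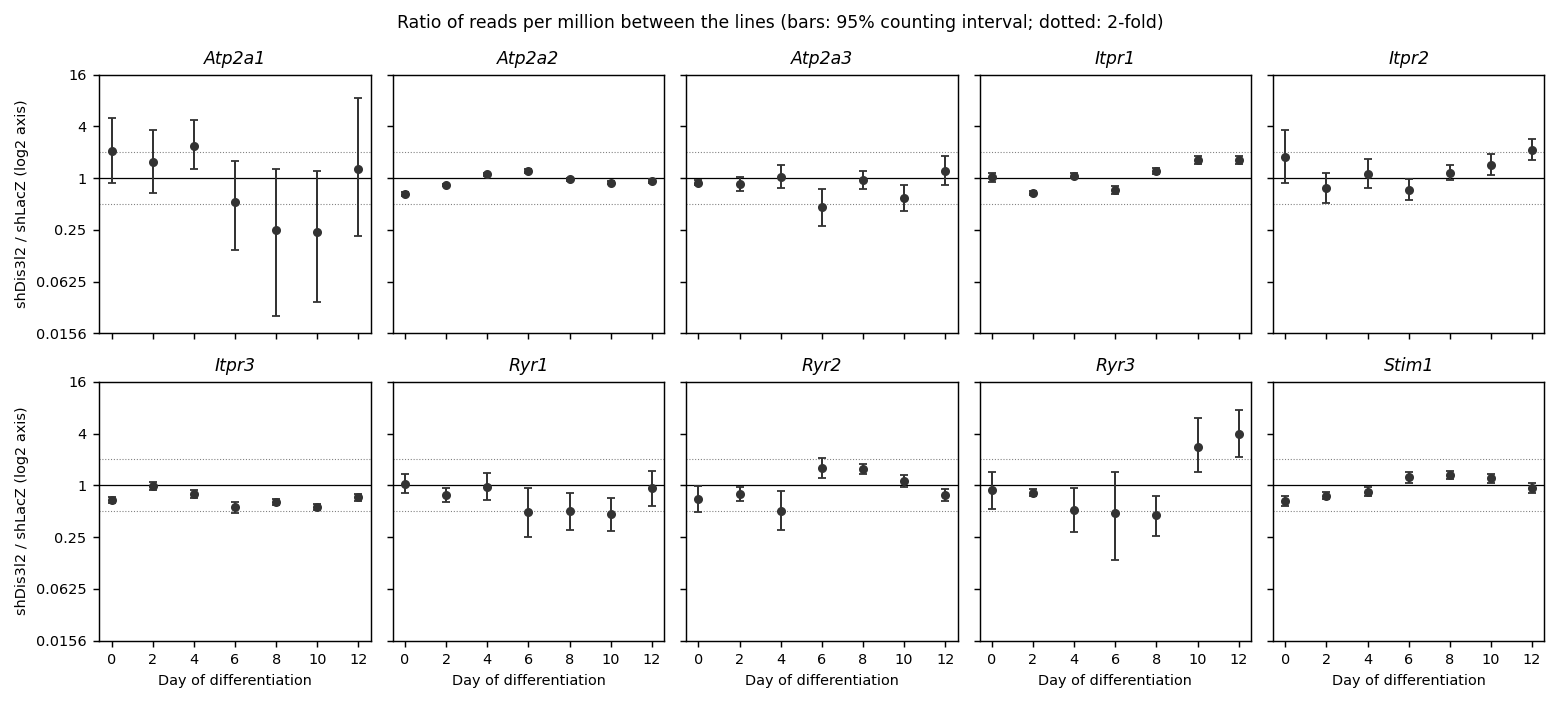
Ratio of the CPM in shDis3l2 to that in shLacZ for each member and day, on a log2 axis, with 95% counting intervals and dotted lines at 2-fold; 1 library per line and day. Itpr3 lies below 1 from d4 to d12, Itpr1 lies above 1 from d8, and Ryr3 passes from 0.450 at d8 to 2.82 at d10.

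In the 8 libraries of d6 to d12, fitted with a term for each day, 2 of 9 members tested passed the edgeR test, both lower in shDis3l2 (18.7% of 17164 genes), and none was higher (19.6%). Itpr3 was lower in shDis3l2 than in shLacZ by 0.71 on the log2 scale (standard error 0.084, adjusted p = 0.00144), and lower on 4 of 4 days. Ryr1 was lower in shDis3l2 by 0.82 (0.24, adjusted p = 0.0363), also on 4 of 4 days, although its d12 interval spans 1 (0.919, 0.569 to 1.49). DESeq2 gave Ryr1 an adjusted p of 0.0703, and in the fits without d6, d8 or d10 edgeR no longer called it. Without d8 and d10 no gene of 15950 passed edgeR and 3149 had an unadjusted p under 0.05. With terms for day and line, the libraries of d6 and d12 alone leave this fit little power. Its lack of calls therefore does not show that differences were lost. Itpr3 was then at -0.67 (adjusted p = 0.153), and both remaining days had intervals below 1.

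The other members did not pass this edgeR test. Itpr1 had a log2 difference of 0.29 (standard error 0.19, adjusted p = 0.264), Itpr2 of 0.34 (0.24, 0.305), Stim1 of 0.21 (0.10, 0.159) and Ryr2 of 0.25 (0.19, 0.319). Ryr3 was at 0.41 (0.59, 0.614), Atp2a3 at -0.40 (0.25, 0.253) and Atp2a2 at -0.03 (0.086, 0.824), and Atp2a1 was too low to be tested. For Itpr1 the call depended on d6. Its ratio was 0.722 at d6 and 1.22 (1.12 to 1.32), 1.62 (1.46 to 1.81) and 1.61 (1.44 to 1.80) at d8, d10 and d12, and without d6 the log2 difference was 0.54 (edgeR adjusted p = 0.00775). Without d12, Stim1 (0.32, edgeR adjusted p = 0.0390) and Ryr2 (0.48, adjusted p = 0.0482) passed, and their ratios at d12 were 0.927 (0.815 to 1.05) and 0.774 (0.658 to 0.910).

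Whether the line difference itself changed from d0 to d4 to d6 to d12 was tested in 1 edgeR fit over the 14 libraries. Of 10 members, 2 moved toward lower in shDis3l2 (5.24% of 20050 genes) and none toward higher (4.85%). The change was -0.55 for Itpr3 (standard error 0.15, adjusted p = 0.0452) and -2.27 for Atp2a1 (0.63, adjusted p = 0.0459). Neither call held in most alternatives. Of the fits without 1 day, only the 1 without d12 kept them and added Stim1, at 0.58 (adjusted p = 0.0498), and DESeq2 called Itpr3 (adjusted p = 0.0111). The changes of Ryr2 (0.65, edgeR adjusted p = 0.213) and Ryr1 (-0.85, 0.133) did not pass.

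Cell type markers differed between the lines beside these members. Visceral endoderm markers (Afp, Ttr, Apoa1, Apob, Amn, Cubn and Sox17, 7 of 7 above the floor in the libraries from d4) summed in shLacZ to 2752, 5840, 6260 and 4210 CPM from d6 to d12. In shDis3l2 the sums were 538, 1308, 1699 and 1304 CPM. Itpr3, the epithelial IP3 receptor, was lower in shDis3l2 on the same days, and the part of these cells in its difference was not tested. At d2, when the Itpr3 ratio was 0.979, the marker sums were 100.5 and 70.4 CPM. At d0, when the ratio with library totals was 0.669 (0.618 to 0.723), they were 1.81 CPM in shLacZ and 2.19 in shDis3l2. Pluripotency markers were also lower in shDis3l2 from d6 to d12, with 55.0 to 341 CPM against 360 to 504 in shLacZ. Their part in the Itpr3 difference was not tested either.

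Ryr2 was higher at d8 to d12 in both lines, whereas cardiomyocyte markers (10 genes, 8 to 10 above the floor) were higher mainly in shDis3l2. Their sum was 22.2, 32.1, 39.8 and 49.6 CPM in shLacZ from d6 to d12 and 34.0, 119, 186 and 114 in shDis3l2. The same genes summed to 67.4 CPM in shLacZ and 77.8 in shDis3l2 in the ESCs, and to 82.5 and 59.0 at d2. The shLacZ sums from d6 to d12 were below all of these, so that the sum alone does not mark cardiomyocytes. At d10, when Ryr2 was at 26.3 and 29.6 CPM, Tnnt2 was at 3.87 and 38.9 CPM, and Myl2 was at 0 counts in shLacZ. All 10 genes were then higher in shDis3l2, but Myh7 (15.4 and 27.2 CPM), Actn2 (2.18 and 3.41) and Nkx2-5 (0.363 and 0.521) by less. At d12 Actn2 (1.88 and 1.69 CPM) and Nkx2-5 (0.298 and 0.281) were not higher in shDis3l2, while the other genes of the list were. Smooth muscle markers (6 genes) summed to 123 to 194 CPM in shLacZ and 527 to 2179 in shDis3l2 from d6 to d12. Most of each shDis3l2 sum was Acta2, with 1838 of 2179 CPM at d8 and 378 of 527 at d12. Tagln, Myh11, Cnn1 and Lmod1 were also higher in shDis3l2 on each of these days. Smtn differed less, with 36.1 CPM in shLacZ and 49.6 in shDis3l2 at d8 and 55.6 and 60.3 at d12. The part of either cell type in the ratios of Ryr2 or Itpr1 was not tested.

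**Figure D5:**
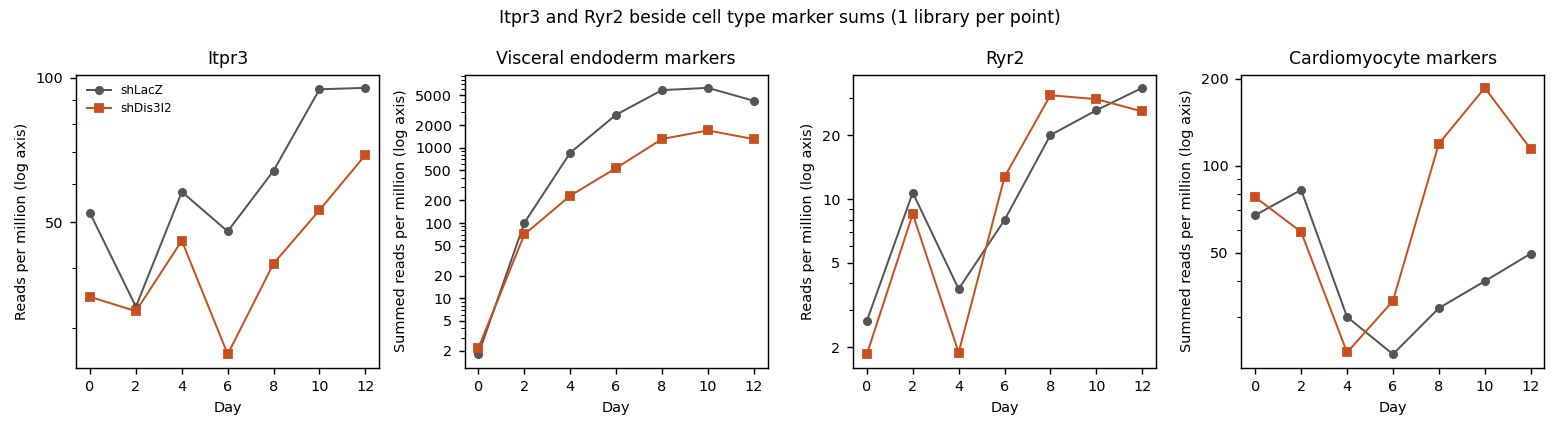
Itpr3 beside the summed visceral endoderm markers and Ryr2 beside the summed cardiomyocyte markers, in CPM on log axes by day, for shLacZ (grey circles) and shDis3l2 (orange squares), 1 library per point. From d4 on both Itpr3 and the endoderm markers are lower in shDis3l2, while the cardiomyocyte markers are 186 CPM in shDis3l2 and 39.8 in shLacZ at d10 with Ryr2 at 29.6 and 26.3.

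The genes most like each member were found by Pearson's r of log2(CPM + 1) over the 14 libraries, among the 11567 (for Atp2a1 11568) other protein-coding genes that reached 10 CPM in 1 library or more. Ryr2 was nearest to Myh7 (r = 0.97), a heavy chain of cardiac and slow muscle myosin, and to Synj2 (0.96). Without d0 its nearest genes were instead Pld1 (0.97) and Cdr2 (0.96), and with Spearman's correlation Cdr2 (0.97) and Fam46c (0.95). Myh7 was at 9.59 CPM in shLacZ and 23.6 in shDis3l2 at d8 and 16.1 and 22.9 at d12. Atp2a1 was nearest to Cyp4f15 (0.94) and Mesp1 (0.93), a transcription factor of early mesoderm. Ryr3 was nearest to Caps2 (0.96) and Col6a4 (0.96), and Ryr1 to Sema4d (0.97) and Phc1 (0.96).

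Atp2a2 was nearest to Camsap1 and Mlxip (0.99 each), Atp2a3 to Nudt14 and Rpp25l (0.98 each), and Stim1 to Zfp512b (0.97) and Efnb2 (0.96). Itpr1 was nearest to Zfp946 (0.97) and Rprd1b (0.96), Itpr2 to Clcn4 (0.99) and Galc (0.98), and Itpr3 to B4galt3 (0.95) and Plbd1 (0.93). Most of these neighbours depended on the setting. Without d0, Atp2a1 kept Cyp4f15 and Mesp1, Ryr1 kept Sema4d and Stim1 kept Efnb2, and the other members kept neither gene. With Spearman's correlation, Atp2a3 kept Nudt14, Itpr3 kept B4galt3 and Stim1 kept Efnb2, and the other members kept neither.

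Genes that act with the pumps and channels were counted from 7 lists, of which 83 of 86 genes were found. Over d6 to d12, 28 of 77 tested were higher in shDis3l2 by edgeR and 10 lower, with a median log2 difference of 0.20. Of all 17164 genes tested, 19.6% were higher and 18.7% lower, and the same shares stand beside the counts of each list below. They cover genes of every type and are not matched to the lists for type or level, so that no enrichment is read from them. Without d8 and d10, no gene of 15950 passed edgeR, in these lists or elsewhere. That fit holds the libraries of d6 and d12 alone and has little power, so it cannot show whether these calls rest on d8 and d10. The calls given below are over all days from d6 to d12. Of 8 other pumps and exchangers tested, 3 were higher and 1 lower. Slc8a1, the sodium calcium exchanger of the plasma membrane, was at 2.88 CPM in shLacZ and 22.2 in shDis3l2 at d12, a ratio of 7.72 (5.23 to 11.8). Atp2b4, a plasma membrane calcium pump, was 3.72-fold higher (3.24 to 4.30) and Atp2b1 1.39-fold (1.31 to 1.47), while Slc8b1, the mitochondrial exchanger, was at 0.523 (0.447 to 0.610).

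Of 10 phospholipases that form IP3, 5 were higher and 1 lower. Plcb1 was 5.14-fold higher at d12 (3.09 to 9.03), Plcb3 1.61-fold (1.45 to 1.79) and Plcd1 1.43-fold (1.20 to 1.70). Plcb4, at 2.85 (2.33 to 3.52), did not pass the edgeR test over the days (adjusted p = 0.109). Plcg1 was 1.27-fold higher at d12 (1.19 to 1.35). Plcg2, the phospholipase of blood cells, was at 0.238 at d10 (0.202 to 0.279) and 0.820 at d12 (0.681 to 0.987). Over d6 to d12 Plcg2 was the gene called lower in shDis3l2, by 1.43 on the log2 scale (edgeR adjusted p = 0.00693).

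Among 22 tested partners of the release channels, 7 were higher and 2 lower, with a median of -0.02. Mrvi1, which binds IP3 receptors in smooth muscle, was 5.23-fold higher at d12 (3.88 to 7.17), and Itpripl2 (1.47, 1.28 to 1.68) and Bcl2 (1.43, 1.08 to 1.90) were higher too. Tespa1, a partner of IP3 receptors in T cells, was at 0.320 (0.185 to 0.532). Of 7 SERCA regulators, 2 were higher and 2 lower. Tmx4, an ER thioredoxin, was 2.33-fold higher (1.95 to 2.79), S100a1 was at 0.502 (0.463 to 0.544) and the ER chaperone Calr at 0.772 (0.756 to 0.789).

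Phospholamban (Pln), the SERCA inhibitor of the heart, is named after its values were seen. It had 0 counts in both lines from d0 to d6, then 15, 105 and 18 counts in shDis3l2 and 0, 1 and 7 in shLacZ at d8, d10 and d12. The library of d10 was thus the highest of the 14, as it was for the cardiomyocyte markers. Sarcolipin (Sln), the inhibitor of skeletal and atrial muscle, was at 0 counts in every library, which allows a level of up to 0.0752 CPM in the deepest library and 0.418 in the shallowest.

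Store-operated entry, the pathway of Stim1, held 8 tested genes, with 2 higher and 2 lower. Stim2 was 1.80-fold higher at d12 (1.44 to 2.25) and Orai2 1.93-fold (1.36 to 2.75). Orai1 was at 0.766 (0.594 to 0.985) and Orai3 at 0.869 (0.735 to 1.03). Over d6 to d12 both were lower in shDis3l2 than in shLacZ, by 0.43 (edgeR adjusted p = 0.0286) and 0.48 (0.0154) on the log2 scale.

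Of 14 buffers and chaperones of the ER lumen, 5 were higher and 1, Calr, was lower. Rcn1 was 1.35-fold higher at d12 (1.28 to 1.41), Pdia4 1.28-fold (1.21 to 1.35) and Cnpy2 1.19-fold (1.09 to 1.31). Among 10 genes of ER leak and mitochondrial uptake, 4 were higher and 2 lower. Grina was 2.10-fold higher (1.91 to 2.31), Pkd2 1.93-fold (1.75 to 2.12) and Micu2 1.42-fold (1.25 to 1.62), and Tmbim6 was at 0.798 (0.760 to 0.837). Pkd2 is a gene that the study picked from these libraries, so that its count here is not independent evidence.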

How the data were processed

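PolyA+ RNA of 14 libraries was sequenced. For alignment the authors used Subread (GRCm38, Ensembl 88), and for gene counting featureCounts. The deposited counts are whole reads that were not normalized. The authors also deposited CPM from edgeR, in which each value is the count plus 0.25, divided by the sum of these over the listed genes (largest relative deviation 4.996e-15). CPM was recomputed here over all genes. The members and the lists were chosen with earlier results of these data known.

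Named genes are the 10 members, Dis3l2 and the 2 genes most like each member (for Ryr2 also without d0 and by Spearman's correlation). They also include up to 4 partner genes per list, by fold at d12, with a CPM of at least 10 and an edgeR call or a 2-fold change at d10 and d12. Beyond this rule, Plcg1, Plcg2, Pln, Sln and single cell type markers were named. Members were called on a day at 2-fold and a CPM of at least 1. Tests over days used edgeR 4.0.16 (R 4.3.3, quasi-likelihood, TMM, filterByExpr, Benjamini-Hochberg 0.05), with DESeq2 1.42.0 as the alternative. Days stand in for replicates there, so that p-values measure the spread between days of 1 culture series and say nothing of the spread between separate cultures. Ratios have Clopper-Pearson and family shares delta-method 95% intervals, from Python 3.11.15 with scipy 1.17.1. The intervals hold counting error alone, and without molecular identifiers PCR copies are counted as separate reads. The tests and intervals were checked on simulated data. The columns of the count table name the knockdown by a code that the supplementary tables pair with it. Positions are from GENCODE M21.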

Additional observations from a re-analysis of the deposited data

Results flagged for a closer look

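In 2 members the line difference changed between the stages by the edgeR test of that change, adjusted over 20050 genes. For Itpr3 the log2 change was -0.55 (adjusted p = 0.0452), with ratios of shDis3l2 to shLacZ of 0.669, 0.979 and 0.791 at d0, d2 and d4 and of 0.554 to 0.724 from d6 to d12. For Atp2a1 it was -2.27 (adjusted p = 0.0459), with ratios of 2.05, 1.54 and 2.34 before d6 and 0.522, 0.246, 0.235 and 1.26 after, on 2 to 81 counts per library. Over the alternatives the adjusted p lay between 0.0111 (DESeq2) and 0.99996 (no day block) for Itpr3 and between 0.0267 (no filter) and 0.99996 (no day block) for Atp2a1.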

How the results depend on the processing

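Of 966 single-member values under an alternative, 772 kept their direction and call (or moved within their counting interval), 127 moved beyond it, 48 lost and 5 gained their call and 14 turned direction. Over d6 to d12 the members called (2) numbered 1 with DESeq2, 0 without the day block and 0 without d8 and d10, and 1 to 4 in the fits without 1 day. Genes called (6574) numbered 3334 without the block, 0 without d8 and d10, and 3336 to 6677 without 1 day. The fit without d8 and d10 holds the libraries of d6 and d12 alone, so its 0 cannot tell lost differences from a lack of power. Between stages the members called (6) numbered 0, and the genes (7801) 1447, without d8 and d10, and 0 and 2136 with the lines summed within each day, an alternative added after the data were seen. For the change between stages the members called (2) numbered 1 with DESeq2 or no filter, 0 without TMM, without the block or without d8 and d10, and 0 to 3 without 1 day. The genes (2023) numbered 3279 without a filter, 0 without the block (713 at an unadjusted p under 0.05 in edgeR), 24 without d8 and d10, and 524 to 2151 without 1 day.

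Day by day, 1 member was at least 2-fold changed at d0 with TMM, with DESeq2 size factors or with no minimum CPM. At 3-fold or a minimum CPM of 5, 0 were called at d4, d6, d8 and d10. At d6, 1 was called with DESeq2 size factors, and at d12, 1 with TMM and 1 at 3-fold.

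The log2 direction turned as follows. Over d6 to d12, the fits without 1 day gave Ryr3 -0.176 (without d12) to 1.06 and Atp2a2 -0.128 to 0.0194 (positive without d10 or d12), and without d8 and d10 Atp2a2 was at 0.0575. Between stages they gave Ryr3 -3.14 to 2.19e-05 and Itpr3 -0.0219 to 0.528 (both turned without d2), and Atp2a2 -0.334 to 0.337 and Stim1 -0.0424 to 0.376 (both turned without d0), and with the lines summed Atp2a2 was at -0.0434. For the change, Atp2a2 was at -0.0218 without the block and -0.0519 (without d6) to 0.195 without 1 day, and Itpr2 at -0.220 to 0.405, negative without d2, d10 or d12. The cause was not tested. The labels give no replicate numbers, and the lines were paired by day alone, in the fits with the day block. With GENCODE M21 lengths, also added later, shares moved within the ryanodine receptors. Depth limits Atp2a1 and the late values of Ryr1 and Ryr3.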
